A study of Danio rerio with 7 samples.

Results

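Erythropoietin is the hormone that sets red cell production, and epoa is one of the zebrafish genes that encode it. The mRNA levels of epoa (ENSDARG00000055163) and of 3 genes of the red cell lineage were followed in larvae kept under hypoxia. These were gata1a (ENSDARG00000013477), alas2 (ENSDARG00000038643) and slc4a1a (ENSDARG00000012881), so that 4 of the 25049 genes in the count table are described here. They were chosen by name to ask whether red cell genes follow the hormone, and they were selected on hypoxia and normoxia values of these same libraries that were already known. Their differences between the groups are therefore given as a description, with no test.

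The libraries came from wild-type zebrafish. Larvae were held at 6% O2 (hypoxia, 3 libraries) or at the atmospheric 20.9% O2 (normoxia, 4 libraries) for 15 h, between 81 and 96 hours post-fertilization (hpf). Each library was made from a pool of 30 whole larvae, so that blood cells were a part of a mixture of all tissues. In such bulk samples fewer red cells and less RNA per red cell cannot be told apart.

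In vertebrates, low oxygen stabilizes hypoxia-inducible factors, which raise transcription of the erythropoietin gene. The hormone binds its receptor on red cell progenitors, acts through the kinase Jak2 and the transcription factor Stat5, and keeps these cells alive while they mature. Maturing cells then fill with globin, with heme made by a chain of enzymes that starts in the mitochondrion, and with the membrane proteins of the red cell. Zebrafish larvae at this age live mainly on red cells formed earlier in the embryo, while new ones begin to arise in the caudal hematopoietic tissue.

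Total counts were 67083058 to 69920400 in the hypoxia libraries and 70275114 to 78235938 in the normoxia libraries. Levels are given as CPM, counts scaled to a common library total that is itself adjusted by the TMM method. The CPM takes no account of transcript length, so it is compared between libraries and never between genes. At these totals 3 counts, taken as the lowest countable level, corresponded to 0.0429 to 0.0447 CPM in hypoxia and 0.0383 to 0.0427 CPM in normoxia before TMM scaling, which covers counting error only. All 4 genes were far above it and passed the filter on low counts, as did 23716 genes of the table.

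The hormone gene epoa was higher in hypoxia. Its level was 2.20, 2.12 and 2.0 CPM in hypoxia replicates 1 to 3, against 0.881, 0.969, 0.923 and 0.760 CPM in normoxia replicates 1 to 4. Every hypoxia library lay above every normoxia library, with a wide gap between them. The means were 2.10 ± 0.101 CPM in hypoxia and 0.883 ± 0.0899 CPM in normoxia (SD, n = 3 and 4), a 2.38-fold difference. On the log2 scale this was 1.25 (SE 0.13). By log2 fold change epoa stood at place 82 from the top among the 23716 genes tested. The values rest on 134 to 148 counts per hypoxia library and 61 to 75 per normoxia library. The coefficient of variation between replicates was 4.79% in hypoxia and 10.2% in normoxia, where counting alone would give 8.48% and 12.2%, so that the spread between pools was no larger than counting error. In the RefSeq annotation of the assembly GRCz12tu, epoa overlaps the protein-coding gene ufsp1. Whether the counting used strand is not given in the sources used here, so that reads of these overlapping genes could have been exchanged.

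The erythroid master regulator gata1a, a zinc finger transcription factor needed for red cell fate, was lower in hypoxia. Its level was 1.28, 1.29 and 1.19 CPM in hypoxia replicates 1 to 3, against 1.62, 1.64, 1.75 and 1.58 CPM in normoxia replicates 1 to 4. All hypoxia libraries lay below all normoxia libraries. The means were 1.25 ± 0.0516 CPM in hypoxia and 1.65 ± 0.0731 CPM in normoxia (SD, n = 3 and 4), and the difference was -0.40 on the log2 scale (SE 0.12). These levels correspond to 80 to 86 counts per hypoxia library and 118 to 131 per normoxia library. Counting alone would give a coefficient of variation of 11.0% in hypoxia and 8.92% in normoxia, which is larger than the spread seen in either group.

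The erythroid enzyme alas2, which makes the first intermediate of heme in red cell precursors, was higher on average in hypoxia, with overlapping groups. Its level was 34.9, 29.7 and 23.6 CPM in hypoxia replicates 1 to 3, against 24.3, 23.8, 21.5 and 22.1 CPM in normoxia replicates 1 to 4. Hypoxia replicates 1 and 2 were above all normoxia libraries, and hypoxia replicate 3 lay within the normoxia range. The means were 29.4 ± 5.67 CPM in hypoxia and 22.9 ± 1.35 CPM in normoxia (SD, n = 3 and 4), a difference of 0.36 on the log2 scale (SE 0.11). Single libraries moved this value more than for the other 3 genes. It was 0.22 without hypoxia replicate 1 and 0.49 without hypoxia replicate 3. In GRCz12tu alas2 overlaps a long noncoding RNA, LOC141375627.

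The anion exchanger slc4a1a (band 3), the major membrane protein that swaps chloride for bicarbonate in red cells, was higher in hypoxia. Its level was 63.1, 54.5 and 46.1 CPM in hypoxia replicates 1 to 3, against 28.1, 26.4, 26.6 and 26.4 CPM in normoxia replicates 1 to 4. The normoxia libraries were nearly level, the hypoxia libraries were spread, and the lowest of them was still far above every normoxia library. The means were 54.6 ± 8.50 CPM in hypoxia and 26.9 ± 0.854 CPM in normoxia (SD, n = 3 and 4), a 2.03-fold difference. On the log2 scale this was 1.02 (SE 0.09), at place 170 from the top of the 23716 genes. Leaving out single libraries gave values of 0.91 to 1.13.

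**Figure D1:**
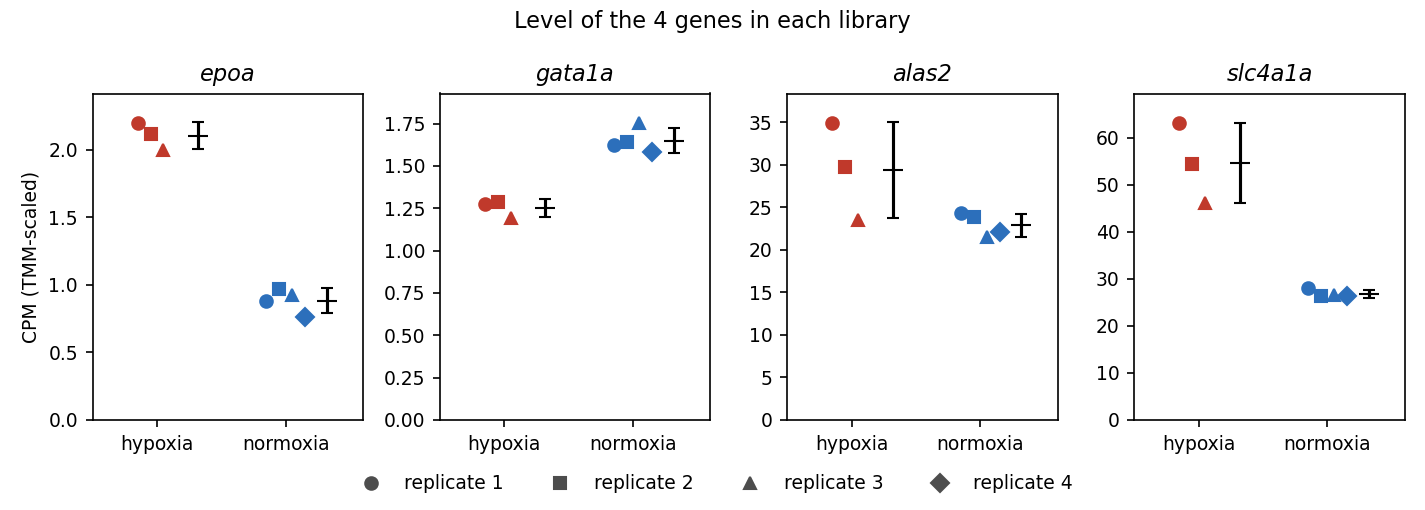
Level of epoa, gata1a, alas2 and slc4a1a in each library, in TMM-scaled CPM on a linear axis that starts at 0, with hypoxia (red) left of normoxia (blue), one symbol per replicate number, and the mean with its SD in black. The hypoxia points of epoa and slc4a1a all lie above the normoxia points, those of gata1a all lie below, and for alas2 hypoxia replicate 3 (23.6 CPM) lies within the normoxia range.

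By an adjusted p under 0.05 in edgeR's quasi-likelihood test over all genes, 3 of the 4 genes were higher and 1 was lower in hypoxia, where 24.6% of all genes tested were higher and 25.1% lower. With the further threshold of a log2 fold change beyond 0.6, 2 of the 4 were up-regulated DEGs (differentially expressed genes) and 0 were down-regulated, against 3.07% and 7.45% of all genes. The hypoxia libraries lay entirely above the normoxia libraries in 2 of the 4 genes and entirely below in 1, against 26.3% and 26.5% of all genes. Since the genes were chosen on this contrast, nothing is read from these counts.

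The 3 red cell genes thus went different ways beside epoa. Ratios taken within each library remove the scaling of the library totals. Relative to epoa, the log2 ratio of gata1a differed by -1.66 between hypoxia and normoxia, with an SD between libraries of 0.03 in hypoxia and 0.12 in normoxia. The log2 ratio of alas2 to epoa differed by -0.91 (SD 0.22 in hypoxia and 0.15 in normoxia). That of slc4a1a to epoa differed by only -0.24, against an SD of 0.16 in both groups, so that slc4a1a came closest to the hormone in size of change. Among the red cell genes, slc4a1a was higher by 1.41 relative to gata1a and by 0.67 relative to alas2.

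The ratio of slc4a1a to alas2 varied little between replicates, with an SD of 0.06 in hypoxia and 0.07 in normoxia on the log2 scale. In hypoxia both genes were highest in replicate 1 and lowest in replicate 3. The gene epoa also had this order, though its spread was no larger than counting error. All tested genes showed this order in 24.5% of cases (5800 of 23716), and the other genes of the 7 red cell lists described next in 43.2% (32 of 74). The 6 liver marker genes (fabp10a, apobb.1, serpina1, fga, fgb and ambp) encode secreted or lipid-handling proteins of the hepatocyte. Their summed level was 486, 317 and 229 CPM in hypoxia replicates 1 to 3, against 727 to 1027 CPM in normoxia. The liver list thus had the same order. The summed thrombocyte, myeloid, endothelial and heart lists, described further below, had it too. The thrombocyte sum was mostly f5 (21.2, 12.5 and 8.77 CPM in hypoxia replicates 1 to 3) and nfe2l1 (13.4, 12.0 and 10.9 CPM). The other tested genes of that list, gp9, itga2b, mpl and gp1bb, did not have this order. The summed stem and progenitor list had the opposite order, but this sum was mostly meis1 (191, 198 and 205 CPM). In that list myb, kit and gata2b had the order of slc4a1a, and runx1 had neither. The summed lymphoid and broad larval lists had neither order. The neuronal marker elavl3 had the opposite order in hypoxia, with 477, 486 and 525 CPM. So had gfap of glia, with 291, 318 and 355 CPM. Of the same broad larval list, col1a1a had the order of slc4a1a, with 2115.7, 2069 and 1941.5 CPM in hypoxia replicates 1 to 3. The genes actc1b and krt4 were highest in hypoxia replicate 2. The part of tissue composition in the spread of alas2 and slc4a1a was not tested.

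The neighbourhood of the 4 genes was described with 7 lists of red cell genes, which were matched to 78 rows of the table, 74 of them beside the 4 genes. All 74 passed the filter on low counts. By edgeR's quasi-likelihood test at an adjusted p under 0.05, 24 were higher in hypoxia (32.4%), 27 were lower (36.5%) and 23 did not pass, and their median log2 fold change was -0.09 beside -0.00438 for all genes tested. Scaling by library size alone, which shifted the median of all genes to -0.10, gave 16 higher and 31 lower. Of the 74 genes, 8 were up-regulated and 7 down-regulated DEGs. Hypoxia libraries lay entirely above normoxia libraries in 21 genes and entirely below in 26. Over all genes tested, 24.6% were higher and 25.1% lower, and 3.07% and 7.45% were up-regulated and down-regulated DEGs. In 26.3% of all genes the hypoxia libraries lay entirely above, and in 26.5% entirely below. The counts of single lists below are to be read beside these shares. The lists were also chosen with earlier results of these data known, so their counts and p-values are a description of these libraries. The direction differed between lists, from 7 of 7 matched globins higher to 4 of 5 genes of the antioxidant list lower.

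**Figure D2:**
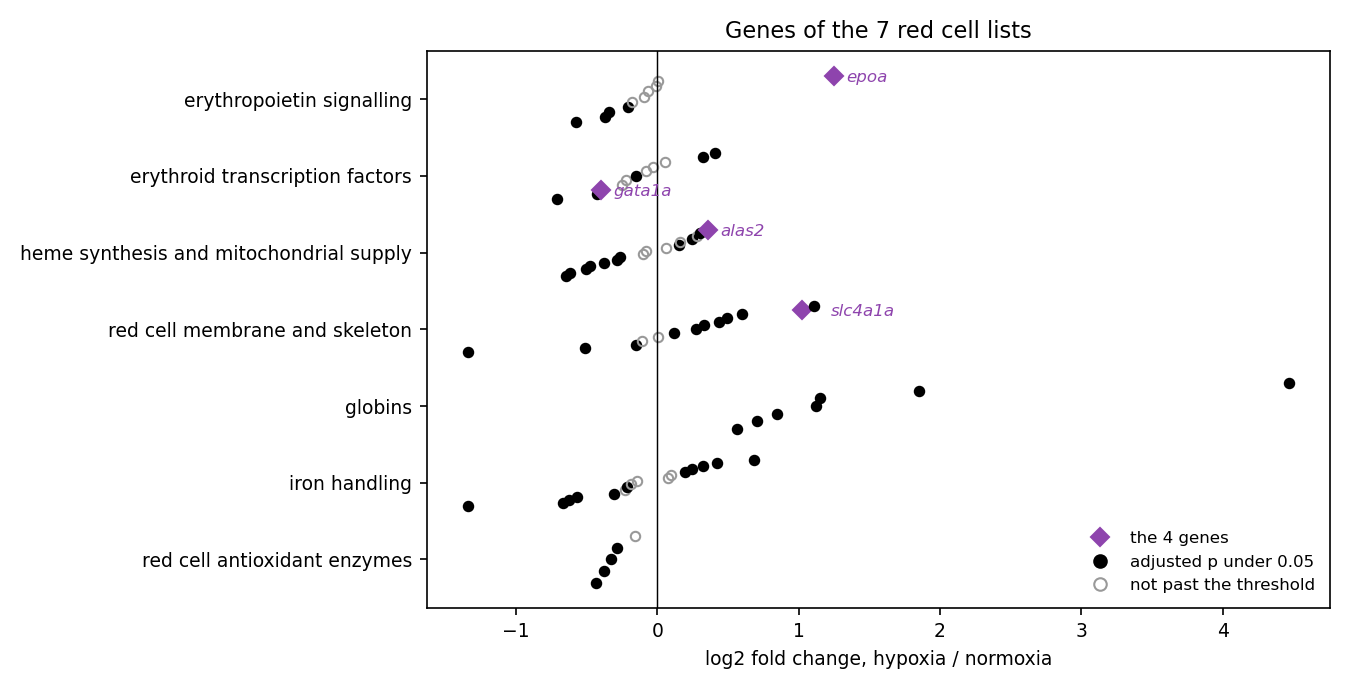
Log2 fold change (hypoxia over normoxia, horizontal axis) of each gene of the 7 red cell lists, one row per list, with the 4 genes as purple diamonds, genes with an adjusted p under 0.05 as filled points and the others as open points. All 7 matched globins lie to the right of 0, the other genes of erythropoietin signalling lie at or below 0, and the heme, membrane and iron lists spread to both sides.

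No other gene of the hormone's pathway passed as higher. Of 9 such genes, 0 were higher, 4 were lower and 5 did not pass in edgeR's quasi-likelihood test, and the median log2 fold change was -0.18. By an unadjusted p under 0.05, and by DESeq2, 0 were higher as well. The paralog epob, which encodes a second erythropoietin, had 1.93, 1.33 and 1.3 CPM in hypoxia replicates 1 to 3, against 1.79, 1.23, 1.78 and 1.57 CPM in normoxia replicates 1 to 4. The groups overlapped fully, and its log2 fold change of -0.06 (SE 0.19, adjusted p = 0.800) turned to 0.02 without hypoxia replicate 2 and to 0.04 without hypoxia replicate 3. The receptor gene epor had 1.77, 1.72 and 1.24 CPM in hypoxia, against 2.01, 1.78, 1.65 and 1.69 CPM in normoxia, a log2 fold change of -0.18 (SE 0.15, adjusted p = 0.355). Of the 2 rows for the receptor's kinase, jak2a had a log2 fold change of -0.01 and jak2 one of -0.09, and neither passed (scaling by library size alone, which lowers all values, let jak2 pass as lower).

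Of the feedback genes that Stat5 is known to induce, cish and 1 of the 2 rows named socs3 were lower. The inhibitor cish, which is switched on by cytokine receptors and dampens them, had 14.2, 14.8 and 14.7 CPM in hypoxia replicates 1 to 3, against 17.9, 18.4, 18.6 and 18.9 CPM in normoxia replicates 1 to 4. The groups were tight and well apart, and cish fell by 0.34 on the log2 scale (SE 0.05, adjusted p = 0.000353). One of the 2 rows named socs3, a further cytokine inhibitor, fell by 0.57 on the log2 scale (ENSDARG00000025428, adjusted p = 0.000491), while the other had a log2 fold change of 0.01 (ENSDARG00000026611, adjusted p = 0.936). The signal transducer stat5b fell by 0.37 (adjusted p = 0.00407) and stat5a by 0.20 (adjusted p = 0.0373), the call of stat5a being lost in 4 of the 7 fits that each leave out a library. These genes act downstream of many cytokine receptors in many tissues, and red cells cannot be singled out in whole larvae.

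Transcription factors of the lineage differed among themselves. Of 10 beside gata1a, 2 were higher, 3 were lower and 5 did not pass, and the median log2 fold change was -0.12. The stem and red cell factor tal1 rose, with 35.0, 34.5 and 38.3 CPM in hypoxia replicates 1 to 3, against 29.1, 27.7, 25.7 and 26.1 CPM in normoxia replicates 1 to 4 (log2 fold change 0.40, SE 0.06, adjusted p = 0.000321). The globin switch repressor bcl11a rose by 0.32. Both genes are also active in neurons, and the neuronal marker elavl3 rose as well, with 477, 486 and 525 CPM in hypoxia, against 380, 401, 375 and 395 CPM in normoxia (log2 fold change 0.36). The part of nervous tissue in the levels of tal1 and bcl11a was not tested.

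The repressor gfi1b, needed for the late steps of red cell and thrombocyte formation, fell by 0.71 on the log2 scale (SE 0.22). Its level was 0.623, 0.470 and 0.655 CPM in hypoxia, against 1.27, 0.956, 0.816 and 0.797 CPM in normoxia. The adjusted p of 0.0206 was 0.0872 or less when single libraries were left out, and the call was lost without hypoxia replicate 2 or normoxia replicate 1. The related gfi1aa (-0.43) and the paralog bcl11ab (-0.15) also passed as lower, but lost the call in 5 and 4 of the 7 fits that leave out a library. The erythroid factor klf1, which drives globin and membrane genes in mammals, had 2.02, 1.83 and 1.86 CPM in hypoxia, against 2.06, 1.81, 2.62 and 2.55 CPM in normoxia (log2 fold change -0.25, adjusted p = 0.187). Its groups overlapped. The other factors klf17, lmo2, nfe2 and zfpm1 did not pass either (zfpm1 passed as lower only under scaling by library size alone), with log2 fold changes of -0.03, 0.06, -0.22 and -0.08.

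The heme pathway beyond alas2 moved both ways. Of 15 further genes of heme synthesis and its mitochondrial supply, 3 were higher, 7 were lower and 5 did not pass, and the median log2 fold change was -0.10. The housekeeping form alas1, which makes the same first intermediate in all tissues, had 97.5, 106 and 90.6 CPM in hypoxia, against 91.5, 93.4, 95.6 and 95.9 CPM in normoxia. Its log2 fold change of 0.06 (adjusted p = 0.393) became -0.04 with scaling by library size alone and -0.00158 without hypoxia replicate 2. The difference between alas2 and alas1 was not tested.

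The 8 rows of the enzymes after this step held 4 lower, 2 higher and 2 that did not pass. The second enzyme, alad, had 21.3, 19.9 and 19.3 CPM in hypoxia, against 24.4, 24.0, 24.6 and 24.0 CPM in normoxia, and fell by 0.27 on the log2 scale (adjusted p = 0.00144). One of the 2 rows named hmbs, the third enzyme, fell by 0.38 (ENSDARG00000008840, adjusted p = 0.00234), and the other had a log2 fold change of -0.10 (ENSDARG00000055991, adjusted p = 0.233) and passed, at -0.17, without hypoxia replicate 1. The decarboxylase urod fell by 0.50 (adjusted p = 0.00213). The mitochondrial oxidase ppox had the lowest log2 fold change of the list, with 4.38, 3.68 and 3.63 CPM in hypoxia, against 6.16, 5.93, 5.87 and 6.45 CPM in normoxia (log2 fold change -0.65, SE 0.09, adjusted p = 0.000278).

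The enzymes uros (0.15) and cpox (0.30), which stand between them, passed as higher, but uros lost the call in all 7 fits that leave out a library and cpox in 5 of them, with an adjusted p of up to 0.148 and 0.143. The last enzyme, fech, which inserts iron, had a log2 fold change of 0.16 (adjusted p = 0.489). Of the mitochondrial carriers, slc25a38 imports glycine, which feeds the reaction of alas2. Its row ENSDARG00000074533 rose by 0.24 (adjusted p = 0.00526 in edgeR's quasi-likelihood test). Scaling by library size alone brought this row to 0.15 with an adjusted p of 0.0581. The other row of this symbol, ENSDARG00000059805, had a log2 fold change of 0.28 and did not pass (adjusted p = 0.190 in the same test). The symbol does not settle which row serves alas2. The iron importer mitoferrin, slc25a37, was lower at -0.62 but lost the call in 6 of the 7 fits. The transporter abcb10 fell by 0.29 on the log2 scale. Along the chain the first, erythroid step was thus higher on average, as were, with unstable calls, uros and cpox. The later enzymes alad, urod and ppox were lower.

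**Figure D3:**
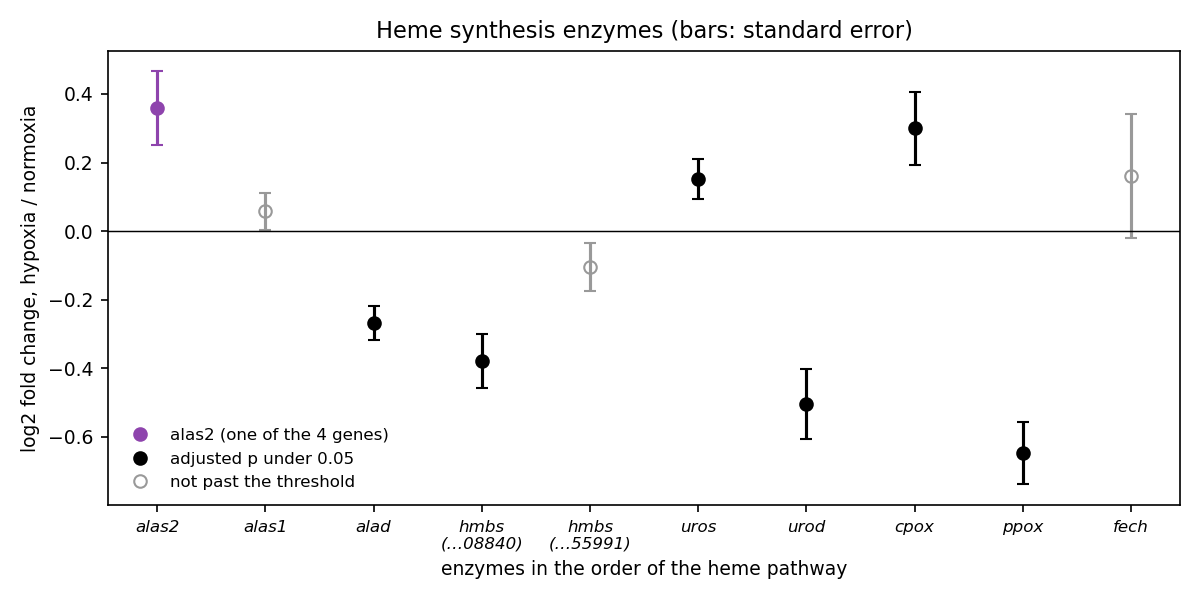
Log2 fold change (hypoxia over normoxia) with its standard error for the heme enzymes in pathway order from left to right, with alas2 in purple, genes with an adjusted p under 0.05 filled and the others open. The alas2 point stands at 0.36, and uros and cpox stand at 0.15 and 0.30. The points of alad, hmbs (ENSDARG00000008840), urod and ppox lie between -0.27 and -0.65, and fech at 0.16 does not pass.

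The globins that could be matched, 7 of the 16 listed, rose together. All 7 were higher in hypoxia in edgeR's quasi-likelihood test (6 with DESeq2), 6 of them past both thresholds, with a median log2 fold change of 1.13. The alpha globin hbae5 had 30.1, 35.8 and 24.7 CPM in hypoxia replicates 1 to 3, against 1.71, 1.34, 0.950 and 1.46 CPM in normoxia replicates 1 to 4. This is a 22.1-fold difference, and on the log2 scale it was 4.47 (SE 0.16, adjusted p = 1.14e-07), the highest of all 23716 genes tested. The related alpha globin hbae4 had 2.89, 2.38 and 2.03 CPM in hypoxia, against 1.55, 0.995, 0.977 and 0.947 CPM in normoxia (log2 fold change 1.13).

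The alpha globin hbae3 carried most of the counts of the matched globins. Its level was 627, 647 and 441 CPM in hypoxia, against 442, 396, 372 and 334 CPM in normoxia, a difference of 0.57 on the log2 scale (SE 0.12, adjusted p = 0.00334). Hypoxia replicate 3 and normoxia replicate 1 were level, so that the groups touched. The close copies hbae1.1, hbae1.2 and hbae1.3 rose by 1.15, 0.70 and 0.85, with no overlap between groups. How reads that fit several copies were counted is not given in the sources used here, so the split between copies is uncertain.

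The beta globin hbbe3 had 1.56, 1.07 and 0.804 CPM in hypoxia, against 0.963, 0.129, 0.174 and 0.0249 CPM in normoxia. Its difference of 1.85 on the log2 scale (SE 0.67, adjusted p = 0.0389) rested on few counts, with normoxia replicate 4 under the floor of 3 counts, and lost the call in 5 of the 7 fits that leave out a library. It was 3.38 in the fit without normoxia replicate 1, in which the gene was far above the other normoxia libraries. Together the 7 globins took 0.0698, 0.0695 and 0.0489% of all counts in hypoxia replicates 1 to 3, against 0.0488, 0.0437, 0.0411 and 0.0368% in normoxia replicates 1 to 4. Another 9 of the 16 listed globins were not matched to a row and are not analysed here.

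**Figure D4:**
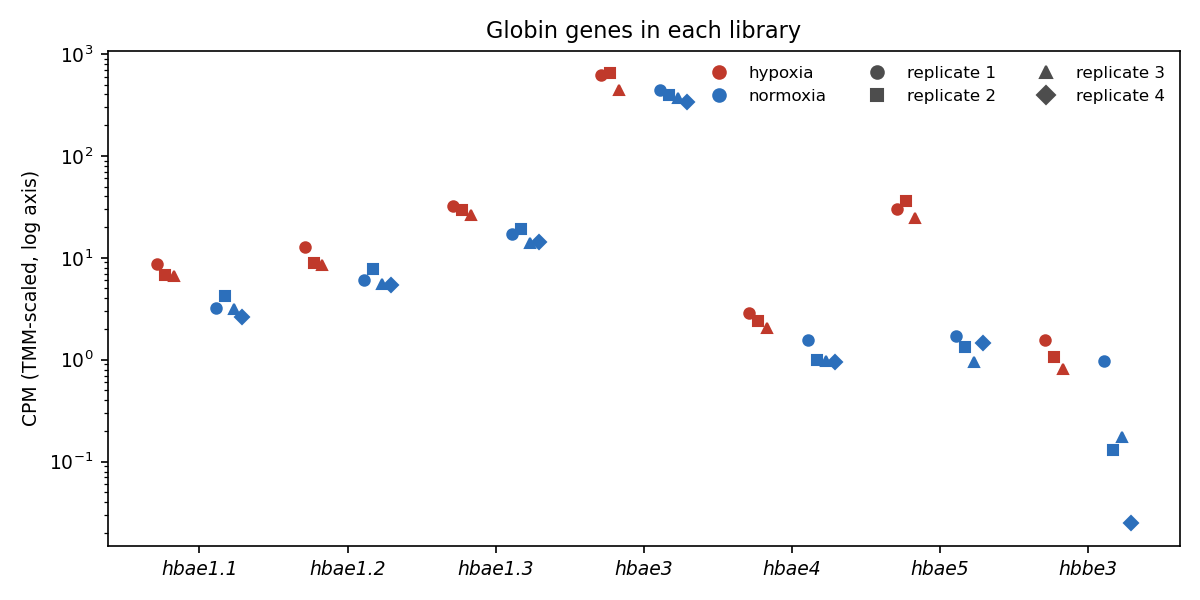
Level of the 7 matched globins in each library, in TMM-scaled CPM on a log axis, with hypoxia (red) left of normoxia (blue) and one symbol per replicate number. The hypoxia points lie above the normoxia points for hbae1.1, hbae1.2, hbae1.3, hbae4 and hbae5, most widely for hbae5, while the groups overlap for hbae3 and for hbbe3, where normoxia replicate 1 (0.963 CPM) stands above the other normoxia libraries.

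Membrane and skeleton genes were the list most often higher after the globins, with 7 of 12 higher, 3 lower and 2 not passing beside slc4a1a (median log2 fold change 0.20). The Kell blood group peptidase kel had 2.43, 2.27 and 1.97 CPM in hypoxia, against 0.936, 0.930, 1.31 and 0.947 CPM in normoxia (log2 fold change 1.11, SE 0.16, adjusted p = 0.000279). It was the 1 up-regulated DEG of the list. The skeleton genes dmtn (dematin) and epb41b (protein 4.1) rose by 0.60 and 0.49. The genes epb41, add2 and 1 of the 2 ank1 rows (ENSDARG00000074777) rose by 0.43, 0.33 and 0.28, the ank1 call being lost without hypoxia replicate 2 or 3. Relatives or forms of these skeleton proteins also serve in neurons, whose marker elavl3 rose by 0.36, and the part of nervous tissue was not tested. The tropomodulin tmod4, best known from muscle, rose by 0.12 and lost the call in 5 of the 7 fits that leave out a library. Beta-spectrin sptb had a log2 fold change of -0.11 (adjusted p = 0.268), which was -0.20 with an adjusted p of 0.0206 without hypoxia replicate 1.

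Other genes of this list went against slc4a1a. The ammonia and gas channel gene rhag had 159, 133 and 116 CPM in hypoxia, against 224, 177, 197 and 178 CPM in normoxia (log2 fold change -0.51, adjusted p = 0.00233). The red cell carbonic anhydrase cahz, which forms the bicarbonate that band 3 exchanges, had 48.6, 46.0 and 46.6 CPM in hypoxia, against 52.9, 52.3, 53.4 and 50.8 CPM in normoxia (log2 fold change -0.15, adjusted p = 0.0124). Its call was lost, with an adjusted p of 0.0563, without hypoxia replicate 2. A second row with the symbol slc4a1 (ENSDARG00000024560) had 2.73, 2.07 and 2.40 CPM in hypoxia, against 8.19, 6.00, 5.37 and 4.83 CPM in normoxia. Its log2 fold change was -1.34 (SE 0.18, adjusted p = 0.000214), opposite to that of slc4a1a, and the groups did not overlap. The symbol does not settle which paralog this row is. Whether its reads came from red cells was not tested.

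Iron genes moved both ways, with 5 of 16 higher, 6 lower and 5 not passing (median log2 fold change -0.16). The transferrin receptor tfr1a, through which red cell precursors take up iron in zebrafish, had 11.8, 8.71 and 9.07 CPM in hypoxia, against 14.6, 14.5, 15.2 and 14.1 CPM in normoxia (log2 fold change -0.57, adjusted p = 0.000763). Its paralog tfr1b, used by other tissues, rose by 0.32 (adjusted p = 0.000582). The liver's iron carrier transferrin, tfa, had 419, 214 and 126 CPM in hypoxia, against 729, 587, 642 and 597 CPM in normoxia (log2 fold change -1.34, adjusted p = 0.00392). The 6 liver markers all fell as well, with a median log2 fold change of -0.88, and their part in the level of tfa was not tested. The iron regulatory proteins split, with ireb2 rising by 0.42 and aco1 falling by 0.67 on the log2 scale. The iron reductase steap3, which red cell precursors need in mice, had 1.47, 1.19 and 0.849 CPM in hypoxia, against 0.839, 0.827, 0.656 and 0.598 CPM in normoxia (log2 fold change 0.68, adjusted p = 0.0220), and was the 1 up-regulated DEG of the list. The plasma ferroxidase cp (ceruloplasmin) fell by 0.63 (adjusted p = 0.0310). Both steap3 and cp lost the call in 4 of the 7 fits that leave out a library. Hepcidin, hamp, which erythropoietic activity is known to lower in mammals, had 11.0, 7.74 and 5.59 CPM in hypoxia, against 9.41, 8.53, 8.36 and 9.42 CPM in normoxia (log2 fold change -0.14, adjusted p = 0.530). Without hypoxia replicate 1 it passed as lower at -0.42, and without hypoxia replicate 3 it was at 0.06.

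Of the 5 genes in the list of red cell antioxidant enzymes, 4 were lower and 1 did not pass, with a median log2 fold change of -0.33. Catalase, cat, had 71.0, 63.0 and 61.9 CPM in hypoxia, against 95.3, 79.4, 81.0 and 83.3 CPM in normoxia (log2 fold change -0.38). The peroxidase gpx1a and the biliverdin reductase blvrb fell by 0.43 and 0.33. The list also held a nucleotidase, nt5c3a, which fell by 0.29. These enzymes are common to many tissues.

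Markers of other blood cells were read beside these genes. Thrombocytes share gata1a and gfi1b dependence with red cells, but this need not hold for each gene listed for them. Of the 6 tested genes of the thrombocyte list, 0 passed in either direction by edgeR's quasi-likelihood test or by DESeq2. By an unadjusted p under 0.05, 1 was higher and 0 lower. These results were not stable. Without normoxia replicate 4, mpl passed as lower, with or without the replicate number as a block. Without hypoxia replicate 1, f5 passed as lower, and without hypoxia replicate 3, gp1bb passed as higher. Counts per library were low for mpl (10 to 37) and itga2b (18 to 32). Progenitor markers were lower in 3 of 5 cases (myb -0.38, kit -0.54 and gata2b -0.50, the last losing the call in 5 of the 7 fits) and myeloid markers in 4 of 8 (lcp1 -0.40, csf1ra -0.37 and cebpa -0.36 the lowest that passed, with lcp1 losing the call without hypoxia replicate 3 and the fourth, coro1a at -0.34, in 5 of the 7 fits), with marco of macrophages higher at 0.47 (lost without hypoxia replicate 3, adjusted p = 0.0652). Liver markers fell as well, and the part of liver in the levels of f5 and cebpa was not tested. Lymphoid markers were lower in 3 of 5 cases and in 2 of 5 with DESeq2. Of these, rag1 and rag2, which recombine antigen receptor genes, were at -0.51 and -0.68. The T cell kinase lck (-0.65) lost the call with DESeq2 and in 5 of the 7 fits. Of 5 endothelial markers 2 were lower (tie1 -0.27 and fli1 -0.29), while kdrl and cdh5 had log2 fold changes of -0.04 and 0.05 and did not pass. Of 4 heart markers 2 were lower (cmlc1 -0.41 and myh6 -0.84), and 0 of these 2 calls held without hypoxia replicate 2 or without hypoxia replicate 3. Of 5 broad larval markers (actc1b of muscle, elavl3, gfap of glia, krt4 of epidermis and col1a1a of connective tissue) 2 were higher and 2 lower.

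Genes with a pattern like that of each of the 4 were sought by Pearson's correlation of log2 CPM over the 7 libraries, where the mean count reached 50. The correlation is a description, since the 7 libraries share the step between the groups. Closest to epoa were cyp1c2 (r = 0.995), a monooxygenase, mab21l3 (0.994) and the mitochondrial carrier ucp3 (0.994), which had log2 fold changes of 1.0, 0.87 and 1.24. Closest to gata1a were gmpr2 (0.997), snx8 (0.996) and dck (0.996), with log2 fold changes of -0.37, -0.37 and -0.62. Closest to alas2 were ENSDARG00000098989 (0.978), nfia (0.977) and igf2b (0.975), none of which passed the test. Closest to slc4a1a were cox7a2 (0.999), oaz2 (0.998) and zgc:113276 (0.997), with log2 fold changes of 0.45, 0.19 and 0.40. None of these 12 genes belongs to the red cell lists.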

How the data were processed

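Poly(A) RNA-seq was carried out on pools of 30 whole larvae. Per the paper's methods, adapter trimming used Trimmomatic 0.39, alignment to GRCz11 used STAR 2.7.10 and counting used featureCounts 2.0.7. The deposited values are raw whole-number counts per Ensembl gene. Strand and multi-mapping settings are not given in the sources used here. All 7 columns were used. In R 4.3.3, edgeR 4.0.16 (filterByExpr, TMM, glmQLFit, glmQLFTest, Benjamini-Hochberg over all genes tested) compared hypoxia with normoxia, and its functions were tested on simulated data. CPM was computed here. Thresholds were an adjusted p under 0.05 and, for DEGs, an absolute log2 fold change over 0.6.

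The 4 genes and the 15 gene lists (7 for red cells) were chosen with earlier results of these data known. The lists were matched to rows by symbol, and 23250 of 25049 rows had one. The 96 red cell symbols gave 78 rows, where 4 pairs of paralogs shared a symbol with 2 rows, 15 symbols had no row and 2 fitted more than 1 row. The 53 symbols of other markers gave 47 rows. The table of symbols gives slc4a1 for 2 rows, and the name slc4a1a comes from the RefSeq synonym. Genes named are, per list, the 3 largest rises and 3 largest falls among those that passed, a short set of key genes, all globins, and the 3 genes most like each of the 4. Others in the text (among them jak2, stat5a, alad, hmbs, abcb10, epb41, add2, ank1, tmod4, hamp, nt5c3a, kdrl and cdh5) were named after their values were seen. Alternatives were DESeq2 1.42.0, other scalings and filters, a replicate block, an adjusted p under 0.01 and leaving out each library. Sequences and gene lengths are not used here, and 1 gene of the heme list is counted but not reported by itself. Coordinates were used only to find genes that overlap the 4 genes in GRCz12tu.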

Additional observations from a re-analysis of the deposited data

Results flagged for a closer look

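In 6 of 68 normoxia values examined (the groups of 4), 1 library stood far from the other 3. The measure was Dixon's ratio of its gap to the whole range. Chance alone would give about 3.4 if the values were independent. They come from the same 4 libraries, so nothing is read from the difference between 6 and 3.4. For slc4a1a the ratio was 0.875, since normoxia replicate 1 had 28.1 CPM and the others 26.4 to 26.6 CPM, a small distance beside the 46.1 to 63.1 CPM of hypoxia. Normoxia replicate 1 was also the high library for hbbe3 (ratio 0.841, 0.963 CPM beside 0.0249 to 0.174 CPM), hbae4 (ratio 0.92, 1.55 CPM beside 0.947 to 0.995 CPM), aco1 (ratio 0.843, 43.8 CPM beside 33.6 to 35.2 CPM) and fli1 (ratio 0.915, 29.0 CPM beside 25.4 to 25.7 CPM). For kel the ratio was 0.957, with 1.31 CPM in normoxia replicate 3 beside 0.930 to 0.947 CPM in the others.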

How the results depend on the processing

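The differences of epoa, alas2 and slc4a1a moved by less than the spread between replicates under the other tests, scalings and filters, and gata1a moved only under scaling by library size alone, to -0.49. Leaving out single libraries gave 1.18 to 1.3 for epoa, -0.42 to -0.37 for gata1a, 0.22 to 0.49 for alas2 and 0.91 to 1.13 for slc4a1a. The red cell lists then held 17 to 22 higher genes, 20 to 28 lower genes and 11 to 14 past both thresholds (15 with all libraries). Under an adjusted p of 0.01 they held 16, 19 and 10. Of the 64 genes named for the lists, 16 lost the call in at least 1 of the 7 fits without a library, and 9 under other settings. Signs turned for alas1 (-0.0378 by library size alone, and -0.00158 to 0.1082 without single libraries) and for epob (-0.2734 to 0.03582 without single libraries), neither of which passed in any of these fits. The differences of epob, epor and klf1 were smaller than the SD of at least 1 group. Their adjusted p in edgeR's quasi-likelihood test was 0.800, 0.355 and 0.187, so these 7 libraries do not settle whether they differ. Whether libraries with the same replicate number were paired is not given in the sources used here. For numbers 1 to 3, same-numbered libraries correlated by 0.19, 0.052 and 0.0211 in their deviations. Of these, 2 of 3 correlated best with their own number, which does not settle the pairing. With the number as a replicate block the lists held 22 higher and 26 lower genes, against 19 and 26 in the same 6 libraries without the block.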
